A study of Mus musculus with 12 samples.

Results

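The 10 genes described here encode nuclear factors of the naive state of mouse embryonic stem cells (mESCs), *Klf2*, *Klf4*, *Klf5*, *Esrrb*, *Tfcp2l1*, *Tbx3*, *Nr0b1*, *Zfp42*, *Dppa3* and *Nr5a2*. They were chosen by name, and each name matched a single identifier, so that they make up 10 of the 54146 genes quantified. RNA-seq was performed on mESCs of strain C57BL/6 grown in serum and LIF on gelatin. The cells carried *Prdm10* alleles with a floxed exon, and the tamoxifen-dependent Cre recombinase CreERT2 was expressed from the ubiquitously active *Rosa26* locus. Cells were exposed for 24 h to 50 nM of 4-hydroxytamoxifen (OHT), which activates the recombinase, or to the same volume of ethanol (EtOH), and RNA was taken at Day 2 or Day 4 after induction. The labels give the EtOH groups the genotype Prdm10F/F; Rosa26-CreERT2 and the OHT groups Prdm10del/del; Rosa26-CreERT2, with 3 libraries in each of the 4 groups. All 4 groups shared strain, medium and recombinase. Because cells without floxed alleles were not analysed here, effects of OHT, of the active recombinase and of the deletion cannot be told apart. The labels do not say whether the 3 libraries of a group came from separate cultures, and the p-values then measure only the spread between these libraries, which may be technical.

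The 12 libraries held between 35017667 and 41409992 expected counts, which are RSEM's estimates of the read pairs per gene. Normalised counts below are these counts divided by DESeq2 size factors over all 12 libraries. The count of *Prdm10* itself, the targeted gene, was higher under the OHT label. At Day 2 it stood at 801 ± 29.4 normalised counts under the EtOH label and at 2173 ± 80.3 under the OHT label, and at Day 4 at 869 ± 45.8 and 2012 ± 67.5 (SD, n = 3 each). Counts of the entire gene do not resolve the floxed exon, and removal of 1 exon need not lower them, so that these values do not show whether the exon was removed. The study assessed the deletion by qRT-PCR and immunoblotting, which were not analysed here. The groups are named by label, and higher or lower means OHT-labelled relative to EtOH-labelled libraries. The labelled cell type was checked on *Pou5f1*, *Sox2* and *Nanog*, the core factors of pluripotency. In no library did they fall below 354, 141 and 149 TPM (transcript abundance scaled to the library), respectively.

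Naive pluripotency is the ground state of the pre-implantation epiblast, and mESCs hold it through a network of transcription factors that reinforce one another around *Pou5f1*, *Sox2* and *Nanog*. In culture, LIF signalling through STAT3 feeds mainly into *Klf4* and *Tfcp2l1*, while WNT signalling relieves TCF7L1-mediated repression of *Esrrb*, *Klf2*, *Tfcp2l1* and *Nr0b1*. In serum and LIF the levels of several of these genes vary from cell to cell, and they are lost as cells pass through the formative towards the primed state. In bulk RNA, fewer cells that express a gene and less of its RNA per cell cannot be told apart.

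The 10 genes lie on 8 chromosomes of GRCm38. In the GENCODE vM21 annotation *Klf2* lies at chr8:72319033-72321656, *Klf4* at chr4:55527143-55532466 and *Klf5* at chr14:99298691-99315036. The nuclear receptor genes *Esrrb*, *Nr5a2* and *Nr0b1* lie at chr12:86361117-86521628, chr1:136842571-136960448 and chrX:86191764-86195947. *Tfcp2l1* is at chr1:118627945-118685168, *Tbx3* at chr5:119670669-119684724, *Zfp42* at chr8:43295063-43306980 and *Dppa3* at chr6:122626410-122630272. *Klf4*, *Zfp42* and *Nr5a2* are on the minus strand and the other genes on the plus strand. All 10 are protein coding, and 0 of the 10 are among the 633 PRDM10-bound genes of the ChIP-seq list, which was made from other libraries than these. Since the list holds 633 genes beside 54146 quantified, 0 of 10 is near the share of all genes and does not set them apart.

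Promoter sequences were looked up to see whether the genes share letters with the DNA that PRDM10 binds or with each other. RefSeq start sites on GRCm38.p6 gave 9 windows, from 250 bases before to 50 after a start, for 7 of the 10 genes (*Tfcp2l1*, *Klf4*, *Zfp42*, *Klf2* and *Nr0b1* with 1 each, *Nr5a2* and *Esrrb* with 2 each). The probe designed for gel shift assays with PRDM10 is printed first, because it carries the sequence tested for binding. Its capitals mark the stretch of 11 bases from the first to the last base that differs in the mutant probe. The other lines are a selection of the elements found in the windows. Each is printed with 9 bases on both sides, 5′ to 3′ on the strand of the gene, and with the motif in capitals.
PRDM10 wild-type probe: ctggcacagTGGTCGCGCCCggcccgcc
*Zfp42*, octamer ATTTGCAT, chr8:43307179-43307204, minus strand: tgaagaggcATTTGCATaactgagca
*Nr0b1*, TATA box TATAAA, chrX:86191734-86191757, plus strand: cgcattcagTATAAAtaagtccca
*Tfcp2l1*, TATA box TATAAA, chr1:118627908-118627931, plus strand: ctgacggccTATAAAaggcgccgg
*Esrrb*, STAT palindrome TTCNNNGAA, chr12:86360930-86360956, plus strand: acggaaactTTCGTGGAAagcacttga
*Klf2*, GC box GGGCGG, chr8:72318839-72318862, plus strand: gacggtcggGGGCGGggcccggcc
*Klf4*, GC box GGGCGG, chr4:55532562-55532585, minus strand: aaaggcaggGGGCGGggcctggcg

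Each motif was searched on both strands, in the 9 windows and in all 32851 windows of the table. Distances are to the RefSeq starts, which for *Zfp42* and *Klf4* lay outside the GENCODE spans given above. The probe stretch was in 0 of the 9 windows and in 4 of all windows (0.0122%), so that a match of all 11 letters is rare anywhere. The octamer, the letters to which POU5F1 binds, was in the *Zfp42* window alone, 186 bases before the start, and in 1.74% of all windows. A TATA box stood 32 bases before the start of *Nr0b1*, 28 before that of *Tfcp2l1*, and on the other strand 181 before a start of *Nr5a2*, against 13.6% of all windows. STAT proteins bind TTCNNNGAA, which was in 1 of the 2 *Esrrb* windows, 178 bases before the start, and in 8.3% of all windows. The GC box, to which SP and KLF proteins bind, was in the windows of *Klf2* (2 sites), *Klf4* (4 sites) and *Zfp42* (2 sites) and in 35.7% of all windows. The CACCC letters CCACACCC were in the *Zfp42* window, overlapping its nearer GC box, and in 3.56% of all windows, and CAAGGTCA, bound by ESRRB and NR5A2, was in 0 of the 9 and in 1.56% of all. These matches describe letters only, and occupancy at them was not tested.

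The level of each gene was compared in TPM, which is per transcript length. *Esrrb*, an orphan nuclear receptor that activates much of the naive network, had the highest TPM of the 10 in all 4 groups. It was 70.5 ± 2.5 and 73.8 ± 2.11 in the libraries labelled EtOH of Day 2 and Day 4, and 85.9 ± 0.808 and 96 ± 4.15 in those labelled OHT (SD, n = 3). *Zfp42*, the zinc finger gene for REX1 that is widely used as a reporter of the naive state, lay between 42.7 and 59.1 TPM over the 12 libraries. *Dppa3*, which encodes the germline and oocyte protein Stella, was second at Day 2 in EtOH with 50.9 ± 1.71 TPM (SD, n = 3) and sixth at Day 4 in OHT with 35.5 ± 0.441 (SD, n = 3). *Nr0b1* made the opposite move, from the eighth place in both Day 2 groups (24 ± 0.89 and 22.3 ± 1.68, SD, n = 3) to the third at Day 4 in OHT (53.5 ± 0.4, SD, n = 3). At Day 4 in EtOH both genes lay in between, *Dppa3* at 45.1 ± 2.42 and *Nr0b1* at 35 ± 0.836 TPM (SD, n = 3). *Tbx3* and *Klf5* held the last places throughout, at 6.79 to 17.8 and 11.4 to 19.6 TPM, and changed order at Day 4 in OHT, where their libraries overlapped. Among tested genes the 10 were well expressed, since *Tbx3* lay above 52.4% and *Esrrb* above 90.2% of the 11616 genes with a mean normalised count above 100.

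Some neighbours in these orders could not be separated by their libraries. At Day 2 in EtOH *Nr5a2*, *Klf2* and *Nr0b1* overlapped at 25.3, 24.6 and 24 TPM. At Day 2 in OHT *Zfp42*, *Tfcp2l1* and *Dppa3* overlapped, as did *Klf2*, *Klf4* and *Nr5a2*. At Day 4 the overlapping neighbours were *Dppa3* with *Tfcp2l1* and *Nr5a2* with *Klf2* in EtOH, and *Zfp42* with *Nr0b1*, *Dppa3* with *Klf2* and *Tbx3* with *Klf5* in OHT. Every other pair of neighbours was apart in all libraries. Reads were assigned to these genes with little ambiguity. The posterior SD that RSEM gives for an expected count, a measure of how far reads were split among genes, was at most 0.019% of the count, and the pseudogenes *Dppa3-ps* and *Zfp42-ps1* held at most 8.04 and 0 counts in any library.

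**Figure D1:**
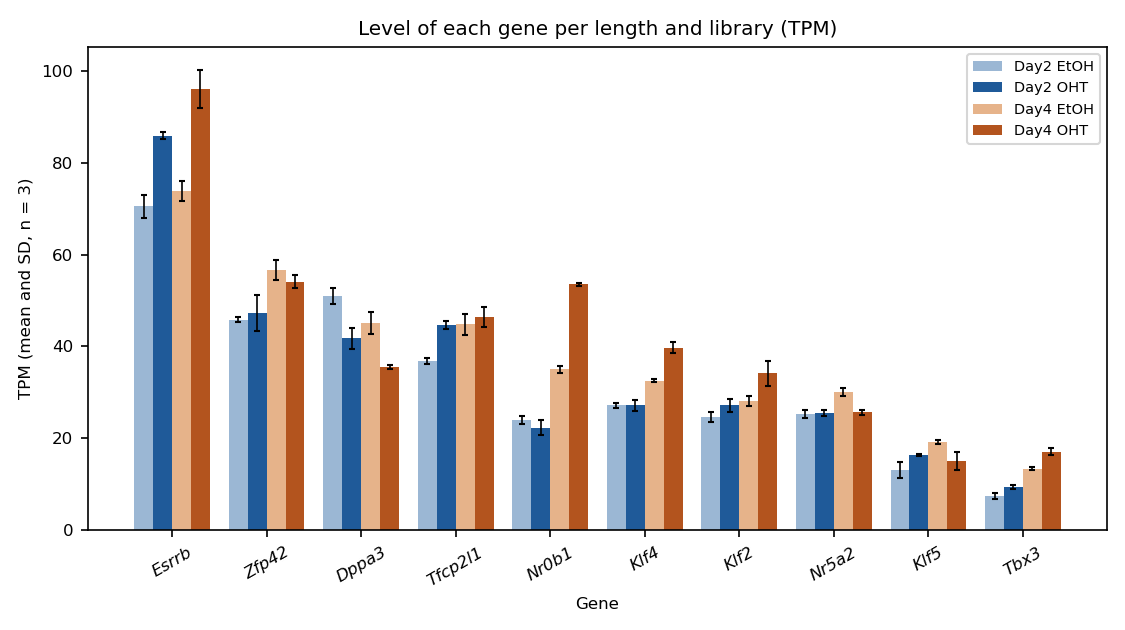
TPM of the 10 genes in the 4 groups, ordered by their mean. Bars are means and error bars the SD of 3 libraries. *Esrrb* is highest in every group (70.5 to 96 TPM), *Nr0b1* reaches 53.5 TPM at Day 4 in OHT, and *Dppa3* falls to 35.5 TPM there.

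The early response of these genes was examined at Day 2, where OHT-labelled and EtOH-labelled libraries were set against each other by the DESeq2 Wald test over 11644 genes. Genes with adjusted p under 0.05 were called if their mean normalised count exceeded 100, as it did for all 10. *Klf5*, *Esrrb*, *Tfcp2l1* and *Tbx3* were higher, 4 of 10 genes where 9.17% of all genes were called higher. *Nr0b1* and *Dppa3* were lower, 2 of 10 where 10.6% of all genes were called lower. *Klf2*, *Klf4*, *Zfp42* and *Nr5a2* were not called. The changes were small, between a fold of 0.775 for *Dppa3* and 1.24 for *Tbx3*, and the median log2 fold change of the 10 was 0.01 beside -0.03 over all genes tested.

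*Tbx3*, a T-box factor that can sustain self-renewal without LIF, had normalised counts of 1419.8, 1477 and 1522 in EtOH and 1822, 1748 and 1901 in OHT. All OHT libraries lay above all EtOH libraries, with a log2 fold change of 0.31 by DESeq2 (SE 0.06, adjusted p = 2.03e-05). For *Esrrb* the counts were 11059, 11412 and 11330.0 in EtOH and 12876, 12682 and 13192 in OHT. The groups were again apart, with a log2 fold change of 0.20 (SE 0.04, adjusted p = 1e-05). *Tfcp2l1*, a CP2-family factor and target of STAT3, had 14902, 15221 and 15442 in EtOH and 16922, 17019 and 18449 in OHT. It was higher in 3 of 3 OHT libraries, by 0.20 on the log2 scale (SE 0.04, adjusted p = 8.18e-05). This call ended when each library's trend on gene length was removed, with a log2 fold change of 0.01 and an adjusted p of 0.951. At 8522 to 8849 bases *Tfcp2l1* had the greatest effective length of the 10.

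*Klf5*, which of the 3 Krüppel-like factors here is the one also needed in the blastocyst, had 1750.0, 1955 and 2206 normalised counts in EtOH and 2266, 2336 and 2402 in OHT. The groups did not overlap, although the highest EtOH library came close to the lowest OHT library. Its log2 fold change of 0.25 (SE 0.07, adjusted p = 0.00758) was not called without Day2_EtOH replicate 1 (0.16), without Day2_EtOH replicate 2 (0.24) or without Day2_OHT replicate 2 (0.25). *Klf4*, the family member among the original reprogramming factors, had 3608 to 3726 in EtOH and 3405 to 3547 in OHT, below EtOH in every library but with a log2 fold change of only -0.08 (95% interval -0.17 to 0.01, adjusted p = 0.277). *Klf2*, which is under WNT and MEK control in naive cells, overlapped between the groups, at 1843 to 2056 and 1927 to 2163 (log2 fold change 0.06, 95% interval -0.06 to 0.19).

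*Dppa3* gave the largest decrease. Its normalised counts were 1636, 1598 and 1663 in EtOH and 1295, 1259 and 1237 in OHT, and the groups were far apart. The log2 fold change was -0.37 (SE 0.06, adjusted p = 1.04e-07). *Nr0b1*, an atypical nuclear receptor without a DNA-binding domain that acts as a corepressor (DAX1), had 1990.2, 1876 and 1782 in EtOH and 1728, 1648 and 1583 in OHT. The groups were apart by a narrow gap, and the log2 fold change of -0.19 (SE 0.06, adjusted p = 0.0214) rested on several choices. It was not called without Day2_EtOH replicate 1 (-0.15) or 2 (-0.19), without Day2_OHT replicate 2 (-0.18) or 3 (-0.16), with total counts as scaling (-0.15), or with the length trend removed (-0.15).

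*Nr5a2*, the liver receptor homologue that can stand in for POU5F1 in reprogramming, had 4164 to 4362 in EtOH and 3881 to 3993 in OHT. Its log2 fold change of -0.11 (SE 0.05) missed the threshold at an adjusted p of 0.0659. It was called lower only with the length trend removed (-0.13, adjusted p = 0.0187) and with all 12 libraries in 1 fit (-0.11, adjusted p = 0.00841). In TPM, which is per length, its groups overlapped, at 24.79 to 26.29 in EtOH and 25.01 to 26.25 in OHT. *Zfp42* overlapped between the groups, at 3430.0 to 3630.5 and 3219 to 3528, with a log2 fold change of -0.04 (95% interval -0.14 to 0.06). In normalised counts, 8 of the 10 genes had groups without overlap at Day 2, the exceptions being *Klf2* and *Zfp42*, while 45.6% of all genes tested had such groups. This depended on the scaling. In TPM the groups of *Klf4*, *Nr0b1* and *Nr5a2* overlapped as well, and those of *Klf2* were apart.

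**Figure D2:**
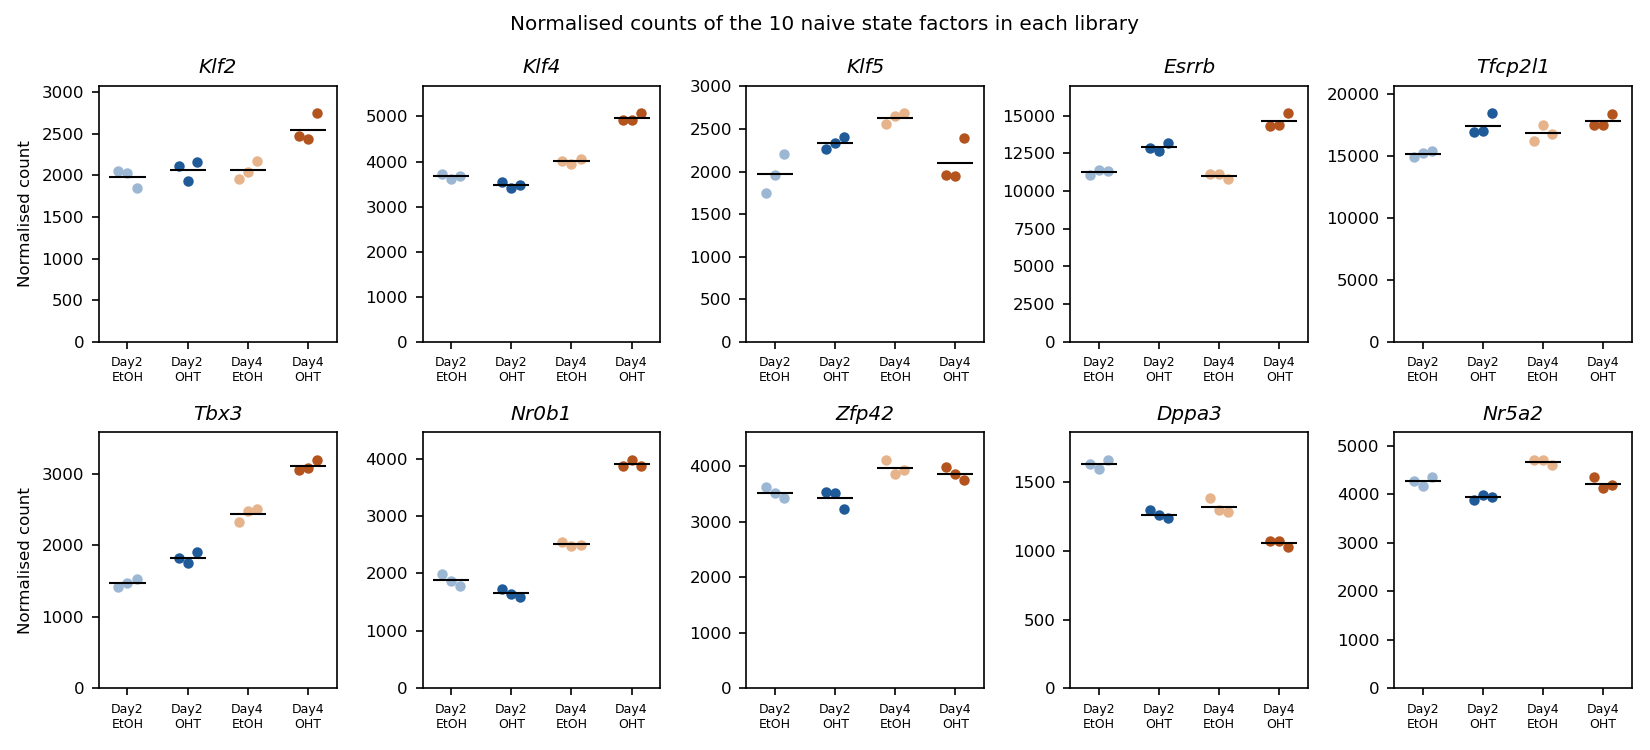
Normalised counts of the 10 genes in each of the 12 libraries. Points are libraries in the order of their replicate numbers, horizontal lines are means of 3, and each vertical axis starts at 0. *Nr0b1* rises from 1583 to 1728 in the Day 2 OHT libraries to 3864 to 3978 in those of Day 4, and *Dppa3* lies lower in OHT than in EtOH on both days.

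The same comparison was made at Day 4 over 11555 genes, to see which of the factors differed later after induction. *Klf2*, *Klf4*, *Esrrb*, *Tbx3* and *Nr0b1* were higher in the libraries labelled OHT, 5 of 10 genes where 23.5% of all genes were called higher. *Klf5*, *Dppa3* and *Nr5a2* were lower, 3 of 10 where 21.7% were called lower, so that the share of decreases was near that of all genes. *Tfcp2l1* and *Zfp42* were not called. The median log2 fold change of the 10 was 0.19 beside 0.01 over all genes tested.

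*Nr0b1* showed the largest change of the 10. Its normalised counts were 2547, 2472 and 2496 in EtOH and 3871, 3978 and 3864 in OHT. The gap between the groups was many times the spread within them, and the log2 fold change reached 0.64 (SE 0.04, a fold of 1.56, DESeq2 adjusted p = 4.49e-50). *Esrrb*, which was already higher at Day 2, had 11140.3, 11151 and 10812 in EtOH and 14329.8, 14409 and 15158 in OHT. All 3 OHT libraries were higher, with a log2 fold change of 0.40 (SE 0.03, adjusted p = 2.77e-34). For *Tbx3* the counts were 2319, 2480.0 and 2508 in EtOH and 3056, 3086 and 3193 in OHT. The groups were apart and the log2 fold change was 0.35 (SE 0.05, adjusted p = 1.64e-12).

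The 3 Krüppel-like factors, which bind overlapping sites and can replace each other in part, did not move as a group. *Klf4* had normalised counts of 4021, 3935 and 4049.5 in EtOH and 4925, 4912 and 5068 in OHT. It was higher in 3 of 3 libraries, by 0.31 on the log2 scale (SE 0.04, adjusted p = 4e-15). *Klf2* had 1957, 2046 and 2179 in EtOH and 2468, 2438 and 2745 in OHT, a log2 fold change of 0.31 (SE 0.06, adjusted p = 9.39e-07). *Klf5* went the other way, from 2558, 2652 and 2684 in EtOH to 1960.4, 1951 and 2395 in OHT. OHT replicate 3 lay closer to EtOH than the other two did, yet below all EtOH libraries, and the log2 fold change was -0.33 (SE 0.07, adjusted p = 5.58e-06).

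*Dppa3* was again lower. It had 1387, 1297 and 1283 in EtOH and 1075, 1072 and 1029.5 in OHT, with no overlap and a log2 fold change of -0.32 (SE 0.06, adjusted p = 2.97e-06). *Nr5a2* had 4707, 4709 and 4599 in EtOH and 4348, 4122 and 4194 in OHT. The difference was modest but outside the spread of either group, with a log2 fold change of -0.15 (SE 0.04, adjusted p = 0.000677). The effective length of *Nr5a2*, which depends on which of its 6 transcripts were found, moved too. It was 3571 to 3609 bases in EtOH and 3684 to 3802 in OHT at Day 4, and 3525 to 3556 and 3380 to 3497 at Day 2, so that the groups were apart in opposite directions on the 2 days. With effective lengths as offsets the Day 4 log2 fold change was -0.20, and whether transcript choice changed was not tested.

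*Zfp42* overlapped between the groups at Day 4 as well, with 3855 to 4111 in EtOH and 3752 to 3980.0 in OHT. Its log2 fold change of -0.04 had a 95% interval of -0.12 to 0.04, which leaves out a change of over 0.12 in either direction. *Tfcp2l1* had 16248 to 17505 in EtOH and 17482 to 18369.7 in OHT (log2 fold change 0.08, SE 0.03, adjusted p = 0.0641). It was called higher with TMM factors (0.08, adjusted p = 0.0446), with the length trend removed (0.11, adjusted p = 0.000964) and without Day4_EtOH replicate 2 (0.11, adjusted p = 0.0179). Groups without overlap were again seen for 8 of the 10 genes, all but *Zfp42* and *Tfcp2l1*, beside 62.9% of all genes tested.

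**Figure D3:**
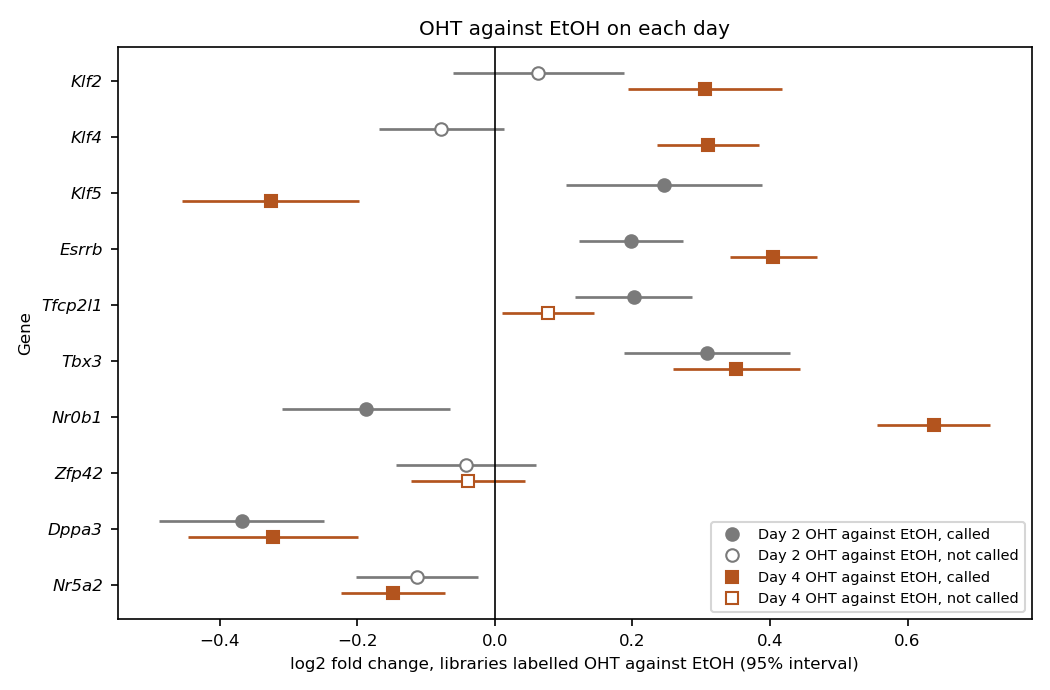
Log2 fold changes of the 10 genes between libraries labelled OHT and EtOH at Day 2 (circles) and Day 4 (squares). Lines are 95% intervals of the DESeq2 fit, and open symbols mark genes that were not called. *Nr0b1* moves from -0.19 to 0.64 and *Klf5* from 0.25 to -0.33, while *Tbx3* and *Dppa3* stay at similar values.

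Whether the difference between OHT and EtOH itself changed from Day 2 to Day 4 was tested by the interaction term of a fit to all 12 libraries, over 11616 genes. It shares its libraries with the comparisons above and adds no independent evidence of their directions. *Klf2*, *Klf4*, *Esrrb* and *Nr0b1* had a more positive difference at Day 4, 4 of 10 genes beside 18.7% of all genes. *Klf5* had a more negative one, 1 of 10 beside 13.6%. For *Nr0b1* the difference of log2 fold changes was 0.83 (SE 0.07, DESeq2 adjusted p = 1.49e-32), with a decrease called at Day 2 and an increase called at Day 4. *Klf5* had the mirror pattern, an increase and then a decrease, and an interaction of -0.57 (SE 0.11, adjusted p = 6.81e-06). The interaction was 0.39 (SE 0.05, adjusted p = 5.12e-14) for *Klf4* and 0.21 (SE 0.04, adjusted p = 2.22e-05) for *Esrrb*.

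For *Klf2* the interaction of 0.25 (SE 0.09, adjusted p = 0.0299) was near the threshold. It was not called with total counts as scaling (0.20) or the length trend removed (0.20), nor without Day2_EtOH replicate 1 (0.22) or 2 (0.22), Day2_OHT replicate 2 (0.20), Day4_EtOH replicate 1 (0.21) or 2 (0.24), or Day4_OHT replicate 3 (0.19). The intervals of the genes that were not called bound how far the days could differ. For *Tbx3* the 95% interval was -0.09 to 0.18, for *Dppa3* -0.10 to 0.19, for *Zfp42* -0.12 to 0.13 and for *Nr5a2* -0.13 to 0.06. *Tfcp2l1*, with -0.12 (95% interval -0.23 to -0.01, adjusted p = 0.097), was called with total counts as scaling (-0.17, adjusted p = 0.0235) and without Day4_EtOH replicate 1 (-0.15, adjusted p = 0.0372), and turned to 0.0996 with the length trend removed.

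The libraries labelled EtOH also allow the days to be compared without OHT, over 11572 genes. *Klf4*, *Klf5*, *Tfcp2l1*, *Tbx3*, *Nr0b1*, *Zfp42* and *Nr5a2* were higher at Day 4 than at Day 2, 7 of 10 genes where 20.6% of all genes were called higher. *Dppa3* was lower, 1 of 10 where 20.5% were called lower, and *Klf2* and *Esrrb* were not called. *Tbx3* increased most, from a mean of 1473 ± 51.1 to 2436 ± 102 normalised counts (SD, n = 3), 0.72 on the log2 scale (SE 0.06, DESeq2 adjusted p = 4.61e-35). Next came *Klf5*, from 1970.3 ± 228 to 2631 ± 65.6 (SD, n = 3), with 0.42 (SE 0.07, adjusted p = 1.45e-08), and *Nr0b1*, from 1883 ± 104 to 2505 ± 38.5 (SD, n = 3), with 0.41 (SE 0.05, adjusted p = 1.8e-12). *Dppa3* fell by 0.31 on the log2 scale (SE 0.06, adjusted p = 3.55e-06), from 1632 ± 32.6 to 1322 ± 56.6 (SD, n = 3). In *Esrrb* the Day 4 libraries (10812 to 11151) overlapped those of Day 2 (11059 to 11412), with a 95% interval of -0.10 to 0.03.

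The smaller increases were 0.17 for *Zfp42* (adjusted p = 0.00119), 0.15 for *Tfcp2l1* (adjusted p = 0.000428), 0.13 for *Nr5a2* (adjusted p = 0.00703) and 0.12 for *Klf4* (adjusted p = 0.0161). *Klf4* was not called without Day2_EtOH replicate 2 (0.11) or Day4_EtOH replicate 3 (0.11), and *Nr5a2* not without Day2_EtOH replicate 2 (0.11) or Day4_EtOH replicate 2 (0.12). In normalised counts the 2 days were apart in 8 of the 10 genes, all but *Klf2* and *Esrrb*, beside 59.0% of all genes tested. In TPM the days were apart for *Klf2* as well. Day stands for time in culture and for everything else that differed between the harvests, which cannot be told apart. These EtOH libraries are also the controls of the OHT comparisons, so the values are set side by side only. For *Tbx3* both differences were positive, and its Day 4 OHT mean lay 1.08 above its Day 2 EtOH mean on the log2 scale. *Nr0b1* ended at 1.05 and *Dppa3*, with both differences negative, at -0.62. *Klf5* differed by 0.24 at Day 2 in OHT and by 0.42 at Day 4 in EtOH, but by only 0.09 at Day 4 in OHT. *Nr5a2* at Day 4 in OHT, with -0.01, was back at its Day 2 EtOH level.

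**Figure D4:**
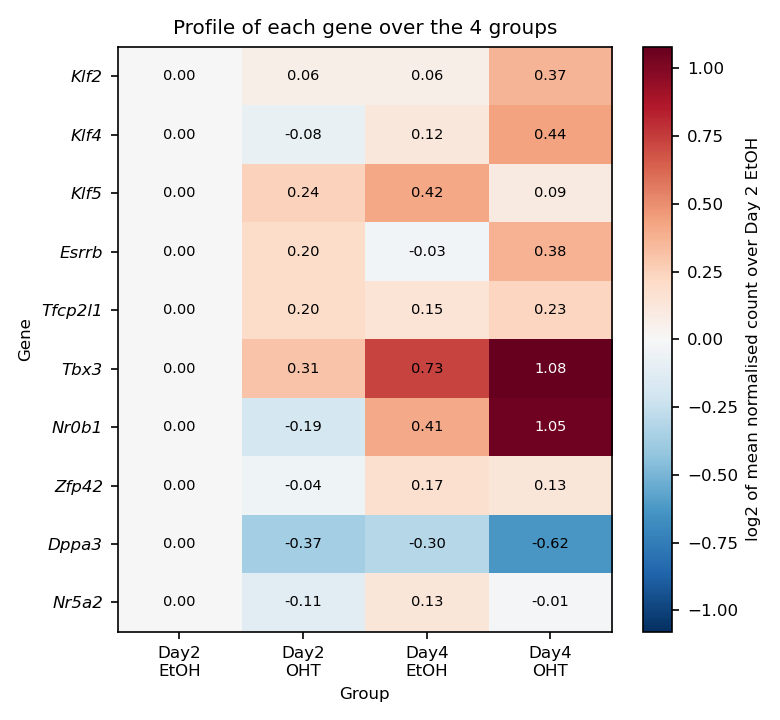
Log2 of the mean normalised count of each group over the Day 2 EtOH mean, for the 10 genes. Colours run from blue (lower) over white to red (higher). *Tbx3* (1.08) and *Nr0b1* (1.05) end highest at Day 4 in OHT, *Dppa3* (-0.62) lowest, and *Klf5* is highest at Day 4 in EtOH (0.42).

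How alike these profiles were was described by Pearson's r of log2 normalised counts over the 12 libraries, which share the 4 groups and are therefore not independent points. Of the 45 pairs among the 10 genes, 17 had an r above 0.5 and 7 an r below -0.5, with a median of 0.316. The most alike were *Klf4* and *Nr0b1* (r = 0.988), followed by *Tbx3* and *Nr0b1* (0.888) and *Tbx3* and *Klf4* (0.871). *Dppa3* ran against 6 of the other 9 genes, with r from -0.894 for *Tfcp2l1* to -0.691 for *Nr0b1*, and its r was -0.347 with *Zfp42*, -0.209 with *Klf5* and 0.162 with *Nr5a2*. The seventh pair below -0.5 was *Esrrb* with *Nr5a2* (-0.542). *Klf5* resembled none of the other 9 closely, its highest r being 0.456 with *Tfcp2l1*. Once the group means were taken out, r was 0.273 for *Klf4* and *Nr0b1* and 0.81 for *Tfcp2l1* and *Tbx3*. The strongest values were then negative, at -0.949 for *Tfcp2l1* with *Zfp42* and -0.885 for *Tbx3* with *Zfp42*. The effective length was 8522 to 8849 bases for *Tfcp2l1*, 3959 to 4402 for *Tbx3* and 1614 to 1619 for *Zfp42*. Whether each library's trend on gene length enters these values was not tested.

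Among all 11615 other genes above the minimum mean, the gene most like *Klf4* was *Nr0b1*, the only case in which it was another of the 10. *Bex2* was most like *Nr0b1* (r = 0.994), *Usp48* most like *Tbx3* (0.99), *Cyp51*, an enzyme of cholesterol synthesis, most like *Dppa3* (0.992) and *Tuba3a* most like *Nr5a2* (0.988). *Nfe2l2*, which encodes the oxidative stress factor NRF2, was most like *Esrrb* (0.984), *Zc3h4* most like *Tfcp2l1* (0.977) and *Gin1* most like *Zfp42* (0.974). The closest to *Klf2* was *Tlnrd1* (0.953) and the closest to *Klf5* was *Pik3r4* (0.945). With this many genes compared over 12 libraries in 4 groups, high values arise for many genes.

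**Figure D5:**
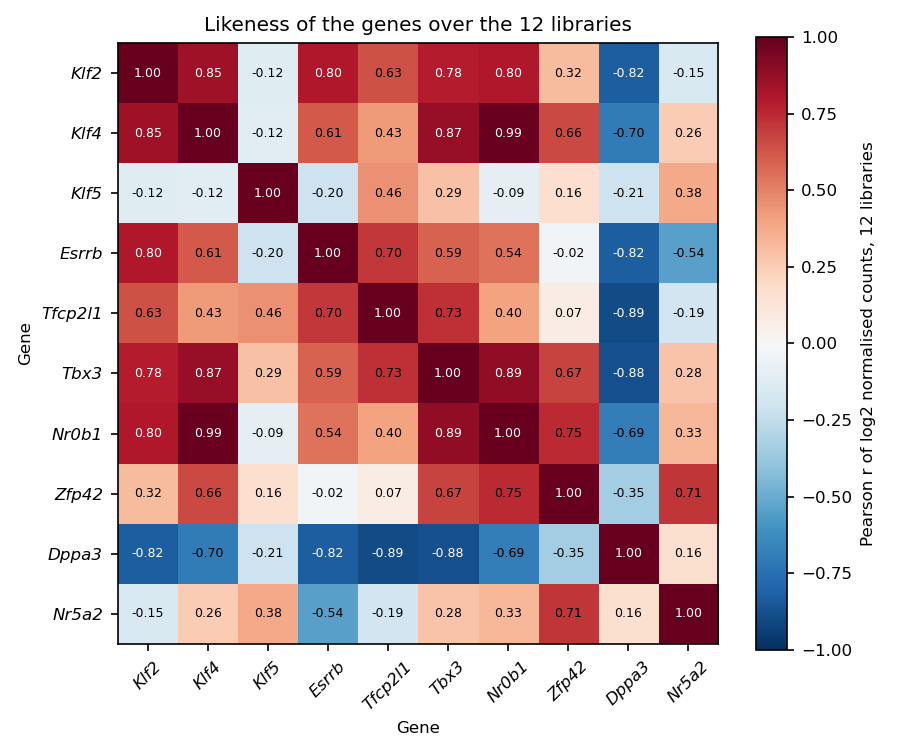
Pearson's r of log2 normalised counts between the 10 genes over the 12 libraries, from -1 (blue) to 1 (red). All pairs among *Klf2*, *Klf4*, *Tbx3* and *Nr0b1* are red (r from 0.782 to 0.988), and the *Dppa3* row is blue for 6 of the other 9 genes at an r below -0.5.

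Other genes of the pluripotent state were placed beside the 10 from lists written from general knowledge. Their counts are read against the share of all genes called, which was 9.17% higher and 10.6% lower at Day 2, and 23.5% higher and 21.7% lower at Day 4. Of the core factors, *Sox2* was lower at Day 2 (log2 fold change -0.29, DESeq2 adjusted p = 9.69e-10) and higher at Day 4 (0.16, adjusted p = 1.77e-05). *Nanog* was higher at Day 4 alone (0.18, adjusted p = 1.87e-07), and its interaction was 0.19 (adjusted p = 0.000797). *Pou5f1* was lower at Day 2 (-0.13, adjusted p = 0.00621) and was not called at Day 4 (-0.04). *Sall4*, a zinc finger factor of the same list, ran opposite to *Sox2*. It was higher at Day 2 (0.15, adjusted p = 0.0108) and lower at Day 4 (-0.09), where its groups overlapped and its adjusted p lay at the threshold, and its interaction was -0.24 (adjusted p = 0.000519). In a list of 15 other genes associated with naive cells, 4 were higher and 2 lower at Day 2, and 10 were higher and 1 lower at Day 4, when 23.5% of all genes were higher and 21.7% lower. The median of that list at Day 4 was 0.15 beside 0.01 for all genes, close to the 0.19 of the 10. *Tdh*, for the mESC enzyme threonine dehydrogenase, was higher by 0.50 (adjusted p = 1.37e-67) and *Mybl2*, for a cell cycle factor, by 0.38 (adjusted p = 1.97e-41) at Day 4. The homeobox gene *Gbx2* was lower in OHT than in EtOH at Day 4 (-0.68, DESeq2 adjusted p = 1.96e-14) and at Day 2 (-0.34, adjusted p = 0.0314). Its mean normalised count was higher at Day 4 than at Day 2 under both labels.

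Genes of the signals that feed this network were called in both directions. Among 10 genes of the LIF and STAT3 pathway 0 were higher and 1 was lower at Day 2, and 3 were higher and 2 lower at Day 4, which is near the 23.5% and 21.7% of all genes. *Pim1* (0.55, adjusted p = 5.85e-51) and *Pim3* (0.27, adjusted p = 3.8e-10), both kinase genes induced by STAT3, were higher at Day 4, and the LIF receptor gene *Lifr* was lower (-0.29, adjusted p = 1.46e-10). *Socs3*, of the same list, was the gene called lower at Day 2 (-0.21, DESeq2 adjusted p = 3.33e-05) and was not called at Day 4 (0.02). Of 13 WNT pathway genes, 12 were above the minimum mean at Day 2, when 6 were higher and 1 lower beside 9.17% and 10.6% of all genes. Of the 11 above it at Day 4, 2 were higher and 5 lower beside 23.5% and 21.7%. The 6 genes called higher at Day 2 had mean effective lengths from 2190 bases (*Tcf7*) to 7981 (*Lrp6*) in the Day 2 EtOH libraries. Whether each library's trend on gene length enters the calls of this list or of the other lists was not tested. At Day 4 *Axin2* (-0.38, adjusted p = 0.0443) and *Tcf7* (-0.34, adjusted p = 0.00395), both themselves WNT targets, were lower and the coreceptor gene *Lrp5* higher (0.20, adjusted p = 0.0248). At Day 2 *Tcf7* had been called higher (0.31, DESeq2 adjusted p = 0.0025) and *Axin2* had not been called (0.12). Of 9 genes of the BMP and ID pathway 0 were higher and 1 was lower at Day 2, and 4 were higher and 3 lower at Day 4 beside the same shares of all genes, with *Id1* at -0.59 (adjusted p = 2.65e-12), the receptor gene *Bmpr2* at -0.50 (adjusted p = 1.16e-09) and *Id2* at 0.36 (adjusted p = 0.00882).

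Genes of the formative and primed states numbered 13. Of the 9 above the minimum mean at Day 2, 0 were higher and 1 was lower, beside 9.17% and 10.6% of all genes. Of the 10 above it at Day 4, 1 was higher and 3 were lower, beside 23.5% and 21.7%, so that the share of decreases was not far from that of all genes. The DNA methyltransferase genes *Dnmt3a* (-0.64, adjusted p = 5.55e-74) and *Dnmt3b* (-0.48, adjusted p = 3.29e-33) were lower at Day 4, when *Zic2* was higher (0.35, adjusted p = 0.00662). *Fgf5*, the classical marker of the primed epiblast, was at most 0.18 TPM in any library. Of 25 relatives of the 10 genes, members of the same gene families, 16 were above the minimum mean. Of these, 2 were higher and 1 lower at Day 2, beside 9.17% and 10.6% of all genes, and 6 were higher and 1 lower at Day 4, beside 23.5% and 21.7%. *Klf15* (1.00, adjusted p = 4.2e-14) and *Klf12* (0.84, adjusted p = 2.08e-05) were higher and *Klf7* lower (-0.52, adjusted p = 3.22e-05) at Day 4, from means of 102 to 369 normalised counts in EtOH, far below those of *Klf2*, *Klf4* and *Klf5*.

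Markers of other cell types were summed beside these results. For 10 primitive endoderm genes, 5 or 6 of them above 1 TPM in a group, the summed level was 94.6 to 96.3 TPM in EtOH and 109.7 to 112 in OHT at Day 2, and 129 to 139 and 119 to 127 at Day 4. Most of this sum was *Sparc*, a gene for a matrix protein that is also on the list of PRDM10-bound genes. It stood at 64.4 to 64.7 TPM in EtOH and 76.3 to 78.1 in OHT at Day 2, where it was called higher (0.18, adjusted p = 0.000559), and at 94.1 to 105 and 89.5 to 93.1 at Day 4, where it was not called (-0.07). The defining endoderm factors *Gata4*, *Gata6*, *Sox17* and *Foxa2* were at most 0.54, 0.45, 0.58 and 0.12 TPM in any library. *Lamb1*, a laminin gene of that list, was lower at Day 4 (-0.33, adjusted p = 8.79e-16). For 7 trophoblast genes, of which 1 or 2 were above 1 TPM, the sums were 3.62 to 4.38 and 4.11 to 4.49 TPM at Day 2, and 2.94 to 3.06 and 2.45 to 3.11 at Day 4. *Cdx2* was at most 0.11 TPM, and *Eomes* was higher at Day 4 (0.47, adjusted p = 0.0269). For 9 fibroblast genes, of which at most 1 was above 1 TPM, they were 3.38 to 3.98 and 3.29 to 3.46, and 2.95 to 3.79 and 1.78 to 2.58, with *Col1a1* at most 0.27 TPM. For 7 genes of 2-cell-like cells, with 0 above 1 TPM, the sums were 0.48 to 0.59 and 0.39 to 0.89, and 1.71 to 1.95 and 1.25 to 1.28. The part of these cells in the values of the 10 genes was not tested.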

How the data were processed

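RNA-seq of 12 mESC libraries was analysed. According to the submitters' processing notes and the methods, the authors aligned reads with STAR (version 2.6.0c) to GRCm38.p6 and ran RSEM, which gave the deposited expected counts. The deposited TPM values come from the same step and were used for levels only. The authors' tables of log2 fold changes and p-values from DESeq2 (version 1.22.2) were not used beyond their pairing of identifiers with symbols, which covered 54079 genes.

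Expected counts were rounded and tested with the DESeq2 Wald test (version 1.42.0, R 4.3.3), with Benjamini-Hochberg adjustment over all genes and independent filtering at 0.1. The 2 days were fitted separately, the interaction on all 12 libraries. Fold changes were not shrunken. Alternatives were the edgeR quasi-likelihood test (version 4.0.16), TMM or total-count scaling, offsets from effective lengths, offsets from a loess fit of log2 counts (0.5 added) on gene length in each library (span 0.3), a block for the replicate number, all 12 libraries in 1 fit, no minimum mean, and each library left out. The fits were also run on simulated counts that had the same dispersion in every gene and no length trend. No result given here rests on that run. Intervals and SDs cover the libraries and counting error only.

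The genes, lists and tests were chosen with earlier results of these data known. Besides the 10 genes, *Prdm10* and the core factors, up to 3 called genes per list with the largest absolute Day 4 log2 fold change were named, and for each of the 10 the gene with the highest r. Marker genes quoted in TPM and *Socs3* were added after their values were seen.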

Additional observations from a re-analysis of the deposited data

Results flagged for a closer look

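In 5 of the 10 genes the difference between libraries labelled OHT and EtOH changed between the days by the DESeq2 interaction test. By the same test, 18.7% of all genes had a more positive difference at Day 4 and 13.6% a more negative one. Taken as the Day 4 minus the Day 2 log2 fold change, the change was 0.83 for *Nr0b1* and -0.57 for *Klf5*, both of which were called in opposite directions on the 2 days. For *Klf4* it was 0.39 and for *Klf2* 0.25, and both of these genes were called at Day 4 only. It was 0.21 for *Esrrb*, which was higher on both days. The interaction call of *Klf2* and the Day 2 calls of *Nr0b1* and *Klf5* were lost under several of the alternatives given above. What set the changes in these 5 genes was not tested.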

How the results depend on the processing

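The number of the 10 genes called stayed within 1.5 times its value under every alternative that was run. Leaving out each library gave 4 to 6 genes at Day 2, 8 to 9 at Day 4, 4 to 5 for the interaction and 6 to 8 between the days in EtOH. Of 610 recomputed log2 fold changes, 559 kept their direction and their side of the threshold, 27 lost a call, 9 gained a call and 15 changed sign, none of which was called before or after. The changes of sign concerned *Zfp42*, *Tfcp2l1* and *Dppa3*. At Day 2 *Zfp42* was at 0.001 with the length trend removed, 0.0002 with the replicate block added to that, and between -0.0635 and 0.0007 where a library was left out, the positive value being that without Day2_OHT replicate 3. Its interaction was -0.04 with total counts as scaling, -0.0441 with the length trend removed, -0.044 with the replicate block added to that, and -0.0365 to 0.0308 where a library was left out. The interaction of *Tfcp2l1* was 0.0996 and that of *Dppa3* -0.0347 with the length trend removed, and 0.0995 and -0.0344 with the replicate block as well. The cause was not tested.

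Equal replicate numbers did not mark shared deviations from the group means in every pair of any comparison. Their correlations were between -0.0342 and 0.106 at Day 2, between -0.246 and 0.158 at Day 4 and between -0.0305 and 0.291 for the EtOH groups of the 2 days. In the same order, 0, 1 and 1 of the 3 EtOH libraries correlated best with their own number. Between the OHT libraries of Day 2 and the EtOH libraries of Day 4 they ran from -0.388 to 0.201. With the replicate block, 5 of the 10 genes were called at Day 2, 8 at Day 4, 6 for the interaction and 7 between the days in EtOH. *Nr0b1* at Day 2 (-0.19, adjusted p = 0.0927) and *Klf4* between the days (0.12, adjusted p = 0.0605) were then not called by DESeq2, and the interaction of *Tfcp2l1* was (-0.12, adjusted p = 0.0483). The lowest count of any of the 10 genes in a library was 1029.5 normalised counts, and how far depth or the number of libraries limits the smallest change that can be called was not tested.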
